A study of Mus musculus with 15 samples.

Results

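Liver takes apart most of the amino acids that reach it and turns the nitrogen they carry into urea. The 49 genes described here encode the 6 enzymes of the urea cycle and 43 enzymes of amino acid breakdown, and they were chosen as the array probes, control spots left out, whose gene symbol is on that list. All 49 were found, through 59 of the 29522 probes that carry a gene symbol, and they are 49 of the 22032 genes tested. The rule uses gene symbols and no measured value.

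In the urea cycle, ammonia and bicarbonate are joined by carbamoyl phosphate synthetase (Cps1), whose activator is made by Nags, and the nitrogen then passes through Otc, Ass1 and Asl to arginase (Arg1), which releases urea. Transaminases collect nitrogen from amino acids, and separate routes break down the carbon skeletons of histidine, tyrosine, tryptophan, lysine, serine, glycine, proline, the branched-chain amino acids and methionine. These enzymes are typical products of mature hepatocytes, many of them respond to glucocorticoids, glucagon and feeding, and they are known to be low in many liver tumours.

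The arrays compared livers of male CD1 mice, an outbred stock, in 3 groups. Group C was injected with saline and later given the empty plasmid, group T was injected shortly after birth with diethylnitrosamine (DEN), a carcinogen that causes hepatocellular carcinoma, and was given the same plasmid without an insert, and group G was likewise given DEN but then the plasmid pcDNA3/CAG-HAGas1, which expresses the growth arrest gene Gas1 with an HA tag from the CAG promoter. All 3 groups thus underwent weekly hydrodynamic gene delivery (HGD), the rapid injection of a large volume with plasmid (50 µg per the records), which reaches only part of the liver cells, mainly those near vessels, and holds for days rather than months. The study took the livers several months after birth, whereas the records state an age of 10 weeks. The records name the tissue only as liver, so the share of tumour in each sample is unknown, and in bulk RNA fewer cells of a type and less RNA per cell cannot be told apart.

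Groups C, T and G were hybridised to 4, 5 and 6 arrays. Arrays C3 and C4 came from one RNA code, as did T4 and T5, and each of these pairs differed less than other pairs of its group, so the 2 arrays were averaged and counted as 1 mouse, which left 3, 4 and 6 mice. The plasmid does not show in the Gas1 values of the array, and whether the array can detect the plasmid's transcript was not tested. The study found DNA, mRNA and protein of the tagged gene in livers after HGD, by PCR, RT-PCR and western blot. Gas1 lay between 6.30 and 6.67 on the log2 scale in group C, between 6.41 and 6.61 in group T and between 6.49 and 6.79 in group G, and group G did not pass the test against group T (log2 difference 0.08 ± 0.08 SE, adjusted p = 0.768 by limma). The livers carried high levels of 7 hepatocyte markers, with a mean log2 signal of 15.08 to 15.37 in every mouse. Group T was above group C in 4 of them and below it in 3, with a median difference of 0.06, and 0 were called higher. The 1 called lower was Ttr, the thyroid hormone carrier transthyretin, at −1.01 ± 0.13 (adjusted p = 0.00594). Its difference was 0.18 under median scaling (adjusted p = 0.717) and −0.76 without C1 and C2. The mean of 3 erythroid markers lay at 10.98 to 12.07 in group C, at 12.28 to 12.57 in group T and at 11.44 to 13.22 in group G. In group T 2 of the 3 were above group C and 1 was below, and 0 were called. The mean of 6 Kupffer cell and macrophage markers was 7.29 to 7.65, 7.60 to 7.85 and 7.52 to 7.94 in groups C, T and G. In group T 4 of the 6 were above group C and 2 were below. Emr1 alone was called, higher by 0.31 ± 0.06 (adjusted p = 0.0262), and its difference was 0.21 without C1 and C2. The part of these markers in the results was not tested.

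The arrays of mice C1 and C2 stood apart from the rest. Before arrays were put on one scale, the log2 signal at the 90th percentile was 7.96 for C1 and 7.69 for C2, against 9.18 and 9.01 for the other arrays of group C, 8.78 to 9.34 in group T and 8.48 to 9.46 in group G. The mean of the 49 genes followed the same order, at 10.32 and 10.05 for C1 and C2, 11.72 and 11.58 for the other arrays of group C, 11 to 11.63 in group T and 10.79 to 11.82 in group G. Quantile normalization, which the study used and which is the main setting here, gives each array the same distribution and so removes this difference. Median scaling, an alternative, shifts each array by its 50th percentile, which was 6.03 for C1 and 5.97 for C2. It was 6.27 and 6.12 for the other arrays of group C, 6.037 to 6.085 in group T and 6.019 to 6.268 in group G. This shift therefore leaves most of the difference at the 90th percentile in place. The genes called against group C, and several that came close, are therefore also given without C1 and C2, which leaves 1 control mouse, C3, whose spread is then taken to be that of the other groups.

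Of the 49 genes, 48 were well above background on all 15 arrays. The exception is Tdh, a threonine dehydrogenase. In 44 genes each mouse had a value, and in the others some spots carried an outlier flag and were left out. Repeated spots of the Otc probe, placed 10 times on the array, had an SD of 0.13 to 0.20 within an array, and the 2 arrays of the same RNA differed by a median of 0.08 (C3, over 46 of the 49 genes) and 0.09 (T4, over 47).

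Ass1, Haao and Pccb were the genes called in any comparison, at an adjusted p under 0.05 over all 22032 genes. RefSeq promoters, here the 300 bases from 250 before to 50 after the start of transcription, were given for 37 of the 49 genes, and these 3 are shown because their genes carry the calls. They are on build GRCm38.p6, with Ass1 on the plus strand at chr2:31470020-31470319, Haao on the minus strand at chr17:83846741-83847040 and Pccb on the minus strand at chr9:101034835-101035134. Each is written along the gene, and capitals mark matches on either strand to the GC box GGGCGG, the E box CACGTG, the CCAAT box CCAAT, the nuclear receptor half-site AGGTCA and the TATA box TATAAA.
Ass1: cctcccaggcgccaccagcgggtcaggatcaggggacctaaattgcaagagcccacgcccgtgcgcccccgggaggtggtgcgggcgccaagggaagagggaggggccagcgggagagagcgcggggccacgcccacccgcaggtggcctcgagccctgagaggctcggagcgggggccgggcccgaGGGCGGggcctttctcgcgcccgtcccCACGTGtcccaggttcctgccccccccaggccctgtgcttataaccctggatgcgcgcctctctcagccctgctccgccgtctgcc
Haao: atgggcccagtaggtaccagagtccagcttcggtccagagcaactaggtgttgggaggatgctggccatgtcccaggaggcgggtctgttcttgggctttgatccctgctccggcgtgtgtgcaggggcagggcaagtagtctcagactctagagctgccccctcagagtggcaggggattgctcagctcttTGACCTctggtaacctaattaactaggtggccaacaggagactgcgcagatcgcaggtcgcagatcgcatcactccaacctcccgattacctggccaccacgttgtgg
Pccb: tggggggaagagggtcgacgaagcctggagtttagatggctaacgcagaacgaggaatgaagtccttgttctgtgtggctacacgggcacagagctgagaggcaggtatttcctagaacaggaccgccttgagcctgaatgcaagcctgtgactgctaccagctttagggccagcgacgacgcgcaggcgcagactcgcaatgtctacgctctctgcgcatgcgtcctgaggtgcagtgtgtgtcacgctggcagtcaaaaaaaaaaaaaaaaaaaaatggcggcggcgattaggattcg
The Ass1 window held a GC box that begins 63 bases before the start and an E box that begins 36 bases before it. Haao had a half-site on the opposite strand that begins 58 bases before the start, and the window of Pccb held none of these letters. Of all 32851 promoters in the table, 35.7% held the GC box, 7.15% the E box, 37.4% the CCAAT box, 16.3% the half-site and 13.6% the TATA box. These matches describe the letters alone.

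Groups T and C were compared to ask which of these genes differ in livers that were exposed to DEN and bear tumours. With quantile normalization 3 of the 49 genes passed the test, and all 3 were lower in group T. The fall was 1.52-fold for Ass1, which joins citrulline and aspartate in the urea cycle, 1.46-fold for Pccb, the beta subunit of propionyl-CoA carboxylase, and 1.40-fold for Haao, which opens the ring of 3-hydroxyanthranilate late in tryptophan breakdown. These are 6.12% of the 49 genes, where 2.38% of all genes (1.22% higher and 1.17% lower) and 3.98% of the 8465 genes well above background on every array were called, so 3 calls are not read as particular to the list. With median scaling of the arrays in place of quantile normalization none of the 3 was lower in group T, as described further on.

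The wider list did not pass the test gene by gene. At an unadjusted p under 0.05 there were 16 lower and 2 higher genes of 49, or 36.7%, where 20.3% of all genes (9.48% lower and 10.8% higher) and 27% of those above background on every array reached that level. Group T lay wholly below group C in 9 of the 49 genes (8.61% of all genes did) and wholly above it in 1 (10.5% of all genes). Of the 8465 genes above background on every array, group T lay wholly below in 944 and wholly above in 1000. With quantile normalization the median log2 difference of the 49 was −0.21, against 0.01 for all genes, with 35 below 0 and 14 above. The mean of the 49 per mouse, relative to group C, was 0.004 in T1, within the controls (−0.04 to 0.04). It was −0.26, −0.21 and −0.24 in T2, T3 and T4. With median scaling, however, the median of the 49 turned to 0.76, and all 49 were above 0. The median was then 0.12 for all genes and 0.65 for those above background on every array.

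**Figure D1:**
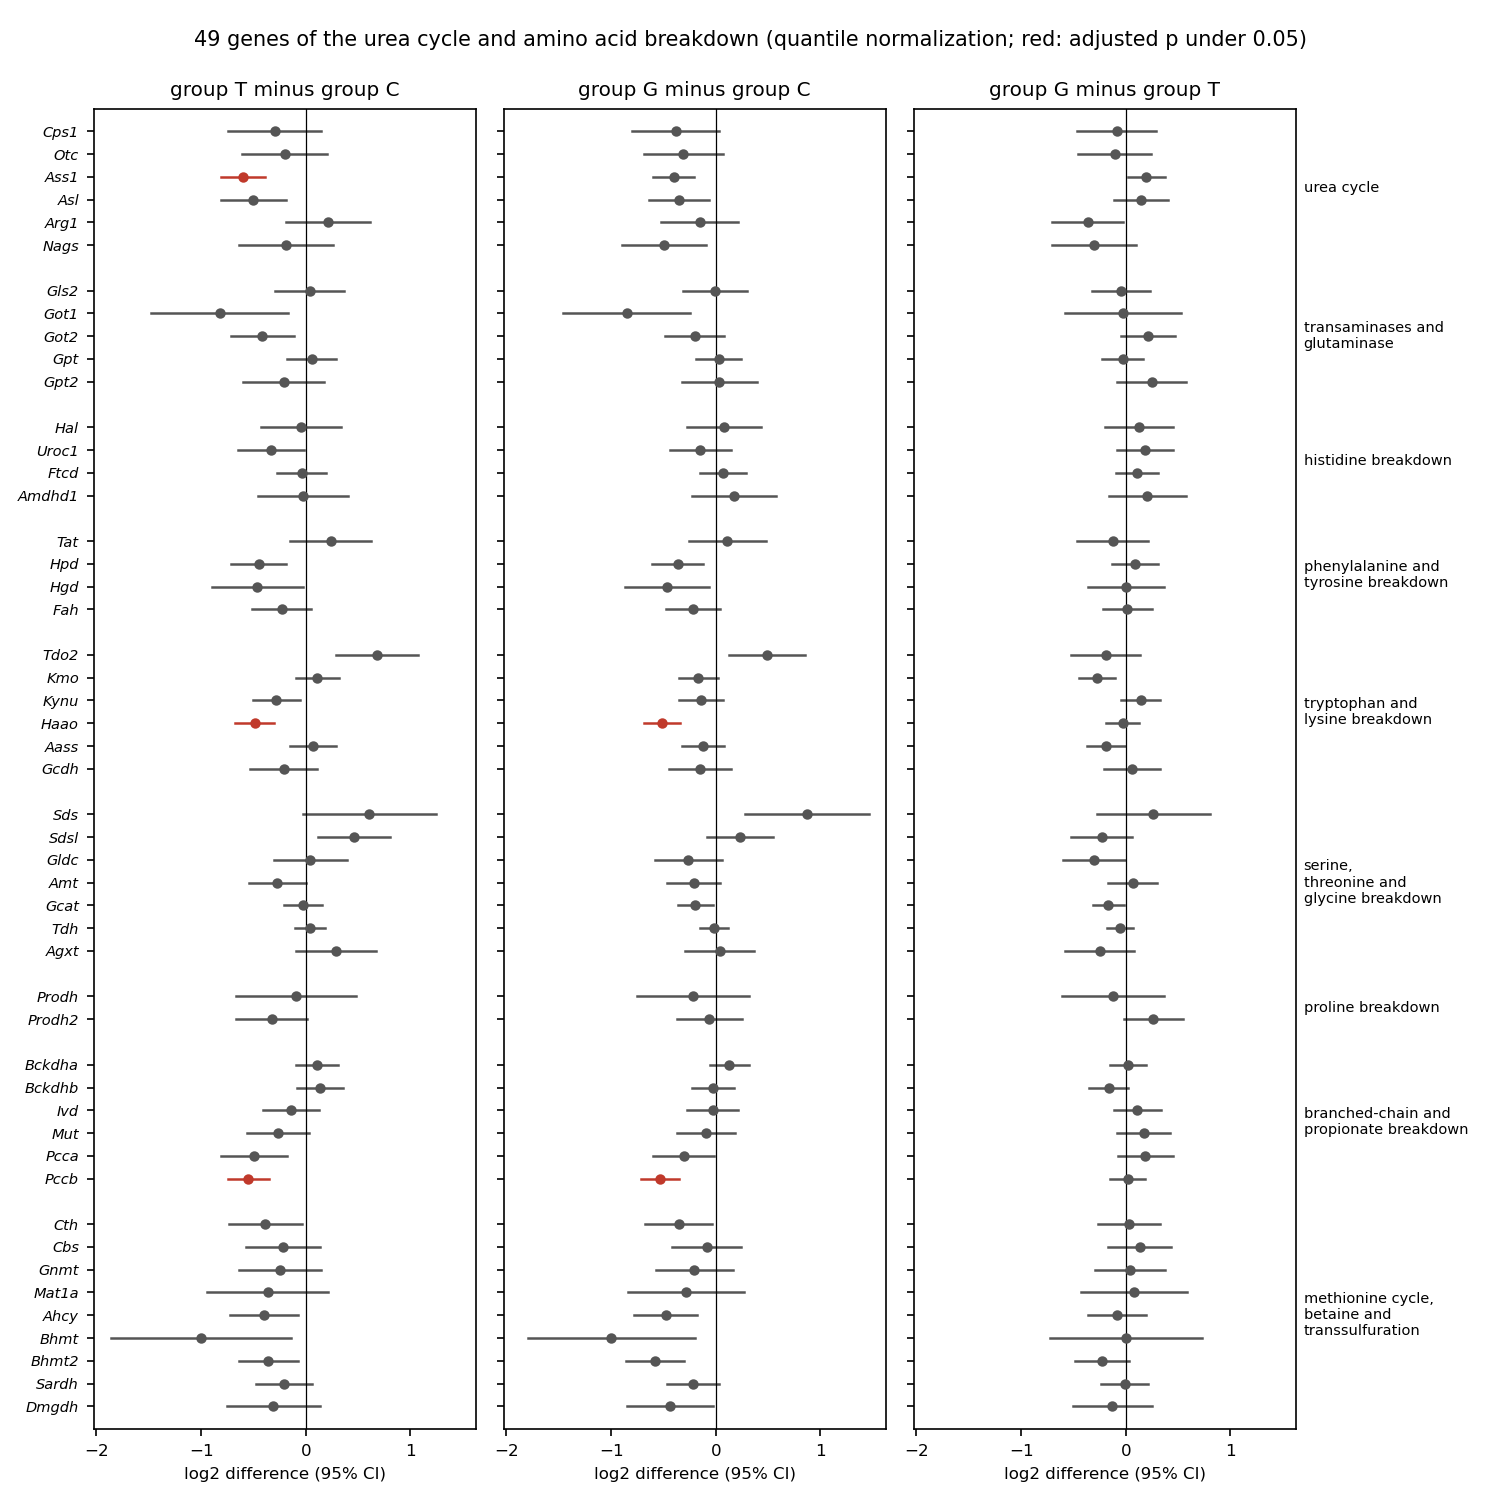
Log2 difference between groups, with its 95% confidence interval, for each of the 49 genes (rows, by role) after quantile normalization, with genes called at an adjusted p under 0.05 in red. Ass1, Haao and Pccb are red for group T minus group C, Haao and Pccb for group G minus group C, and none for group G minus group T; with median scaling the differences of all 49 genes from group C turn upward in group T and those of 47 in group G.

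Among the urea cycle genes Ass1 was the one that was called. Its log2 signal was 14.97, 15.06 and 14.94 in C1, C2 and C3, then 14.58, 14.30, 14.25 and 14.44 in T1 to T4, and from 14.43 to 14.76 with a median of 14.59 in group G. Every mouse given DEN was below the 3 controls. The difference of group T from group C was −0.60 ± 0.10 (SE, adjusted p = 0.0134 by limma, n = 4 and 3). Both Ass1 probes, at 31376068 to 31376127 and 31375998 to 31376057 on chromosome 2 of mm9, were lower in group T, by −0.46 ± 0.11 and −0.73 ± 0.10. Without C2 the adjusted p was 0.0561, and without both C1 and C2 the difference was −0.54 (adjusted p = 0.362).

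Asl, which splits argininosuccinate into arginine and fumarate, came close to the threshold. It read 11.15, 11.01 and 11.42 in the controls, 10.94, 10.64, 10.59 and 10.59 in T1 to T4, and 10.49 to 11.14 with a median of 10.87 in group G. Group T lay wholly below group C, with T1 the highest of its group, while group G overlapped both. The difference between T and C was −0.50 ± 0.14 (adjusted p = 0.0779), and it was called when T1 was left out (adjusted p = 0.0464), when G6 was left out (adjusted p = 0.0456) and when the slide was taken into account (−0.53, adjusted p = 0.0307). Over all alternatives the adjusted p of Asl in T against C ran from 0.0114, with the 15 arrays taken as separate mice, to 0.942, under median scaling the difference turned to 0.50 (adjusted p = 0.402), and without C1 and C2 it was −0.73 (adjusted p = 0.367).

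The other urea cycle genes overlapped between groups T and C. Cps1 was at 11.15, 10.83 and 10.85 in the controls and at 11.17, 10.64, 10.36 and 10.42 in group T, and ranged from 10.10 to 10.90 with a median of 10.63 in group G. In Otc, which makes citrulline, the controls gave 10.74, 10.58 and 10.87, group T gave 10.86, 10.36, 10.46 and 10.43, and group G spanned 10.12 to 10.995 with a median of 10.34. In both genes T1 was as high as the controls and the other mice of group T were below all 3 of them.

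Arg1 had no common order. Its values were 11.79, 12.26 and 11.94 in the controls, 12.20, 12.54, 11.99 and 12.11 in T1 to T4, and 11.49 to 12.27 with a median of 11.81 in group G. The difference of T from C was 0.21 ± 0.18 (adjusted p = 0.575). Nags was measured in 11 mice, at 9.67, 9.32 and 9.56 in the controls, at 9.49, 9.57 and 8.92 in T1, T2 and T4, and from 8.73 to 9.46 with a median of 9.01 in 5 mice of group G. Its difference between G and C, −0.49 ± 0.18, did not pass (adjusted p = 0.274), and no other urea cycle gene was called in any of the 3 comparisons.

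**Figure D2:**
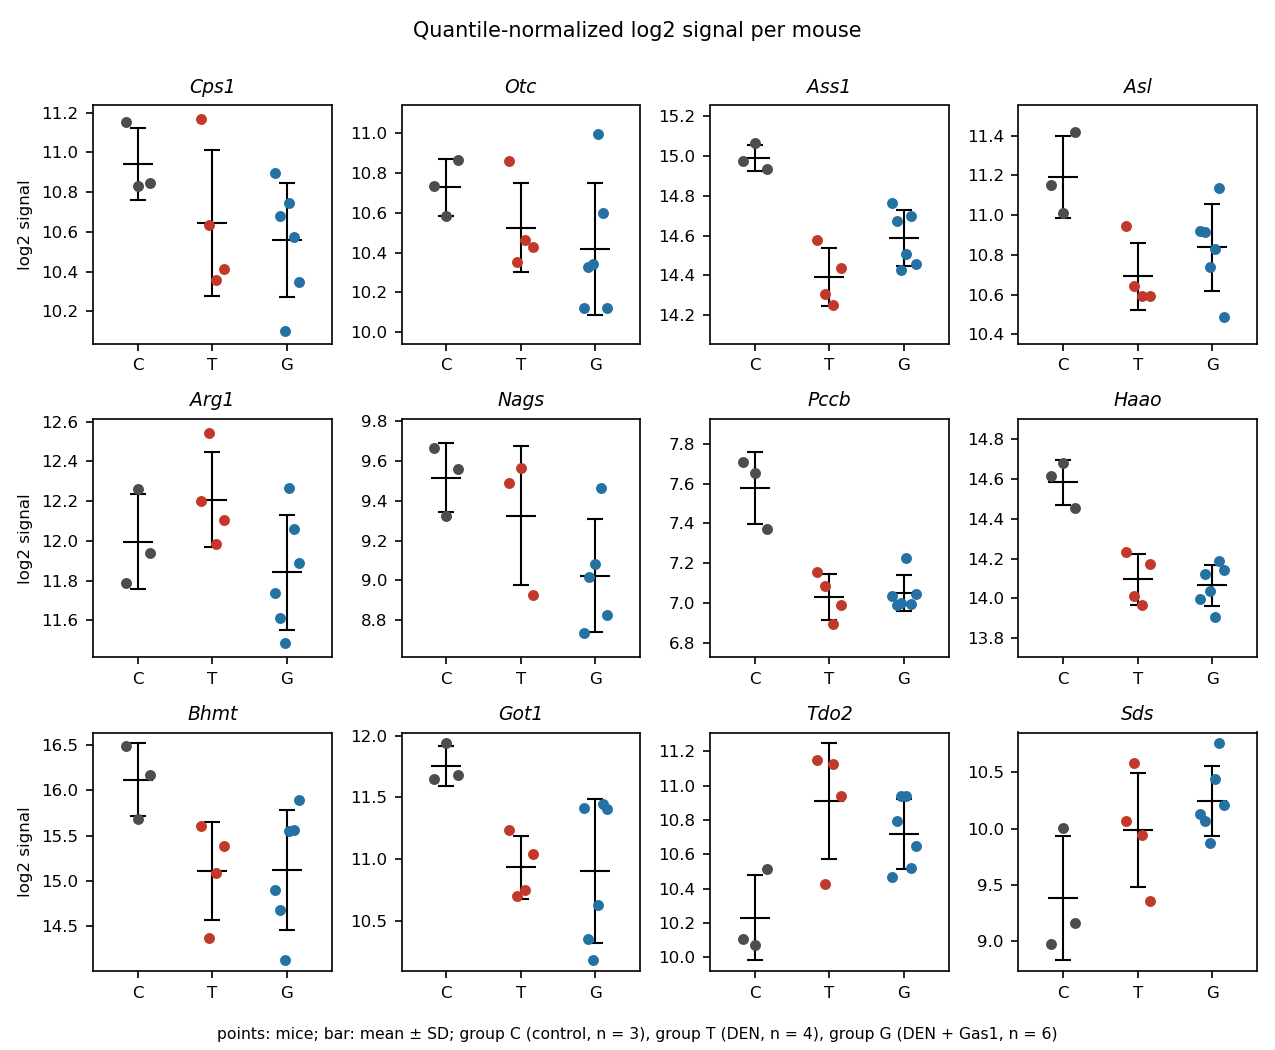
Quantile-normalized log2 signal (y axis, own range in each panel) of 12 named genes in each mouse of groups C (n = 3), T (n = 4) and G (n = 6), with mean ± SD as bars. In Ass1, Haao and Pccb the mice of groups T and G lie below the 3 controls, whereas Cps1, Otc, Arg1, Nags and Sds overlap; with median scaling the group T means of all 12 genes lie above those of group C.

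Tryptophan is broken down from Tdo2, which opens its ring, through Kmo and Kynu to Haao, and the group held genes on both sides of 0. Haao was at 14.62, 14.68 and 14.46 in the controls, at 14.24, 14.01, 13.97 and 14.17 in T1 to T4, and at 13.91 to 14.19 with a median of 14.08 in group G. No mouse given DEN reached the lowest control. The fall was −0.49 ± 0.09 in group T (adjusted p = 0.0182) and −0.52 ± 0.08 in group G (adjusted p = 0.0269). Its probe lies at 84230696 to 84230755 on chromosome 17 of mm9. Without C1 and C2 the difference was −0.36 in group T (adjusted p = 0.471) and −0.39 in group G (adjusted p = 0.801), and the call between T and C was also lost without C1, without C2 or without T3 (adjusted p = 0.063, 0.0659 and 0.0561).

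Tdo2, the entry step of the same route, lay the other way. It read 10.11, 10.07 and 10.51 in the controls, 11.15, 10.43, 11.13 and 10.94 in T1 to T4, and 10.47 to 10.94 with a median of 10.72 in group G. T2 was below C3, and the other mice of group T were above all controls. The difference of T from C was 0.68 ± 0.18 and did not pass (adjusted p = 0.0639), but without T2 it was called, at 0.84 (adjusted p = 0.0333). Without C1 and C2 it was 0.40 (adjusted p = 0.745). Over all alternatives the difference of Tdo2 stayed above 0 and its adjusted p ran from 0.0253, with the 15 arrays taken as separate mice, to 0.942.

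Kmo, which hydroxylates kynurenine, is the member whose groups G and T did not overlap. It was at 10.72, 10.68 and 10.93 in the controls, 10.83, 10.92, 10.71 and 11.09 in group T, and 10.42 to 10.704 with a median of 10.63 in group G. Group G against group T gave −0.28 ± 0.08 (adjusted p = 0.207), and 2.03% of all genes had group G wholly below group T. Its 2 probes disagreed between T and C, at 0.00 ± 0.14 and 0.22 ± 0.08.

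Pccb and Pcca form propionyl-CoA carboxylase, which takes the propionyl-CoA left by valine, isoleucine, methionine and threonine towards the citric acid cycle. Pccb had values of 7.71, 7.66 and 7.37 in C1, C2 and C3, of 7.16, 7.09, 6.89 and 6.99 in T1 to T4, and from 6.99 to 7.23 with a median of 7.02 in group G. All DEN mice were below the controls, and C3 was the control closest to them. The fall was −0.55 ± 0.09 in group T (adjusted p = 0.0140) and −0.53 ± 0.08 in group G (adjusted p = 0.0276). Without C1 and C2 the differences were −0.34 (adjusted p = 0.454) and −0.33 (adjusted p = 0.858), so the size was over 1.5 times smaller against C3 alone. The probe is at 100882850 to 100882909 on chromosome 9 of mm9.

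Pcca, the alpha subunit, was lower in each mouse of group T than in any control, at −0.49 ± 0.15, and missed the threshold (adjusted p = 0.0874). It was called when the slide was taken into account, with the 15 arrays as separate mice and with centring on probes well above background. These settings called 799, 1947 and 12891 of all 22032 genes, against 525 in the main setting. Without C1 and C2 the difference of Pcca was −0.47. The other branched-chain genes (Bckdha, Bckdhb, Ivd and Mut, now named Mmut) had differences between −0.26 and 0.14 in group T, with adjusted p-values of 0.311 and above.

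The genes of the methionine cycle, betaine and transsulfuration held the largest difference of the list, in Bhmt, with much spread between mice. Bhmt, which methylates homocysteine with betaine, was at 16.49, 15.69 and 16.17 in the controls, 15.61, 14.37, 15.09 and 15.38 in T1 to T4, and 14.13 to 15.89 with a median of 15.23 in group G. Group T was wholly below group C, with T1 just under C2, and group G reached into group C. The difference of T from C, −1.003 ± 0.40, did not pass (adjusted p = 0.181), nor did that of G from C, −0.998 ± 0.37 (adjusted p = 0.260). Its 3 probes gave −0.80, −1.14 and −1.08 for T against C.

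Bhmt2, a neighbour of Bhmt on chromosome 13 that uses S-methylmethionine, was measured in 11 mice. It read 11.94, 11.66 and 11.86 in the controls, 11.73, 11.28, 11.42 and 11.41 in group T, and 11.12, 11.07, 11.51 and 11.24 in the 4 mice of group G with a value. Group G lay wholly below the controls, with a difference of −0.58 ± 0.13 (adjusted p = 0.0847), and T1 overlapped them. It was called between G and C with the slide as a term (−0.59, adjusted p = 0.0426) and with the 15 arrays as separate mice, while under median scaling it was 0.19 (adjusted p = 0.760) and without C1 and C2 −0.62 (adjusted p = 0.858). All 9 genes of this role had a negative difference from group C in both T and G with quantile normalization, though none was called and the sign turned for the 9 in group T with median scaling.

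Among the transaminases, Got1, the cytosolic aspartate transaminase, had the largest negative differences from group C in both DEN groups. It was at 11.65, 11.94 and 11.68 in the controls, at 11.24, 10.703, 10.75 and 11.04 in T1 to T4, and at 10.18 to 11.44 with a median of 11.02 in group G. Both DEN groups lay wholly below the controls, and group G split into 3 mice near 11.4 and 3 between 10.18 and 10.63. The differences of −0.82 ± 0.30 in group T and −0.85 ± 0.28 in group G did not pass (adjusted p = 0.155 and 0.211). Got2, its mitochondrial partner, was −0.41 ± 0.14 in group T (adjusted p = 0.129), while Gpt and Gls2 were at 0.06 and 0.04.

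Serine dehydratase (Sds) and its relative Sdsl, which turn serine into pyruvate, were on the upper side. Sds was 8.98, 10.01 and 9.16 in the controls, 10.07, 10.59, 9.95 and 9.35 in T1 to T4, and 9.87 to 10.76 with a median of 10.17 in group G. C2 lay within the range of both DEN groups, above T3, T4 and G3. The differences were 0.61 ± 0.29 in group T (adjusted p = 0.272) and 0.87 ± 0.27 in group G (adjusted p = 0.195). Sdsl was the 1 gene with group T wholly above group C, at 0.46 ± 0.16 (adjusted p = 0.132).

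Gldc, the decarboxylase of the glycine cleavage system, was at 10.77, 11.36 and 10.94 in the controls, 11.21, 10.71, 11.35 and 10.99 in group T, and 10.57 to 11.01 with a median of 10.76 in group G. Its groups overlapped throughout, and group G minus group T was −0.31 ± 0.14 (adjusted p = 0.439). Prodh2, which oxidises hydroxyproline, was at 12.20, 12.53 and 12.25 in the controls, 12.32, 11.93, 11.91 and 11.83 in group T, and 11.88 to 12.52 with a median of 12.33 in group G. Its adjusted p was 0.260 for T against C and 0.494 for G against T.

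The remaining roles gave no call. The 4 histidine genes (Hal, Uroc1, Ftcd and Amdhd1) had differences between −0.33 and −0.03 in group T. Of the 4 tyrosine genes, Hpd, which makes homogentisate, was wholly lower in group T at −0.45 ± 0.12 (adjusted p = 0.0685, and −0.65 with 0.303 without C1 and C2), Hgd was at −0.46, Fah at −0.23 and Tat, the entry step that glucocorticoids induce, at 0.24.

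**Figure D3:**
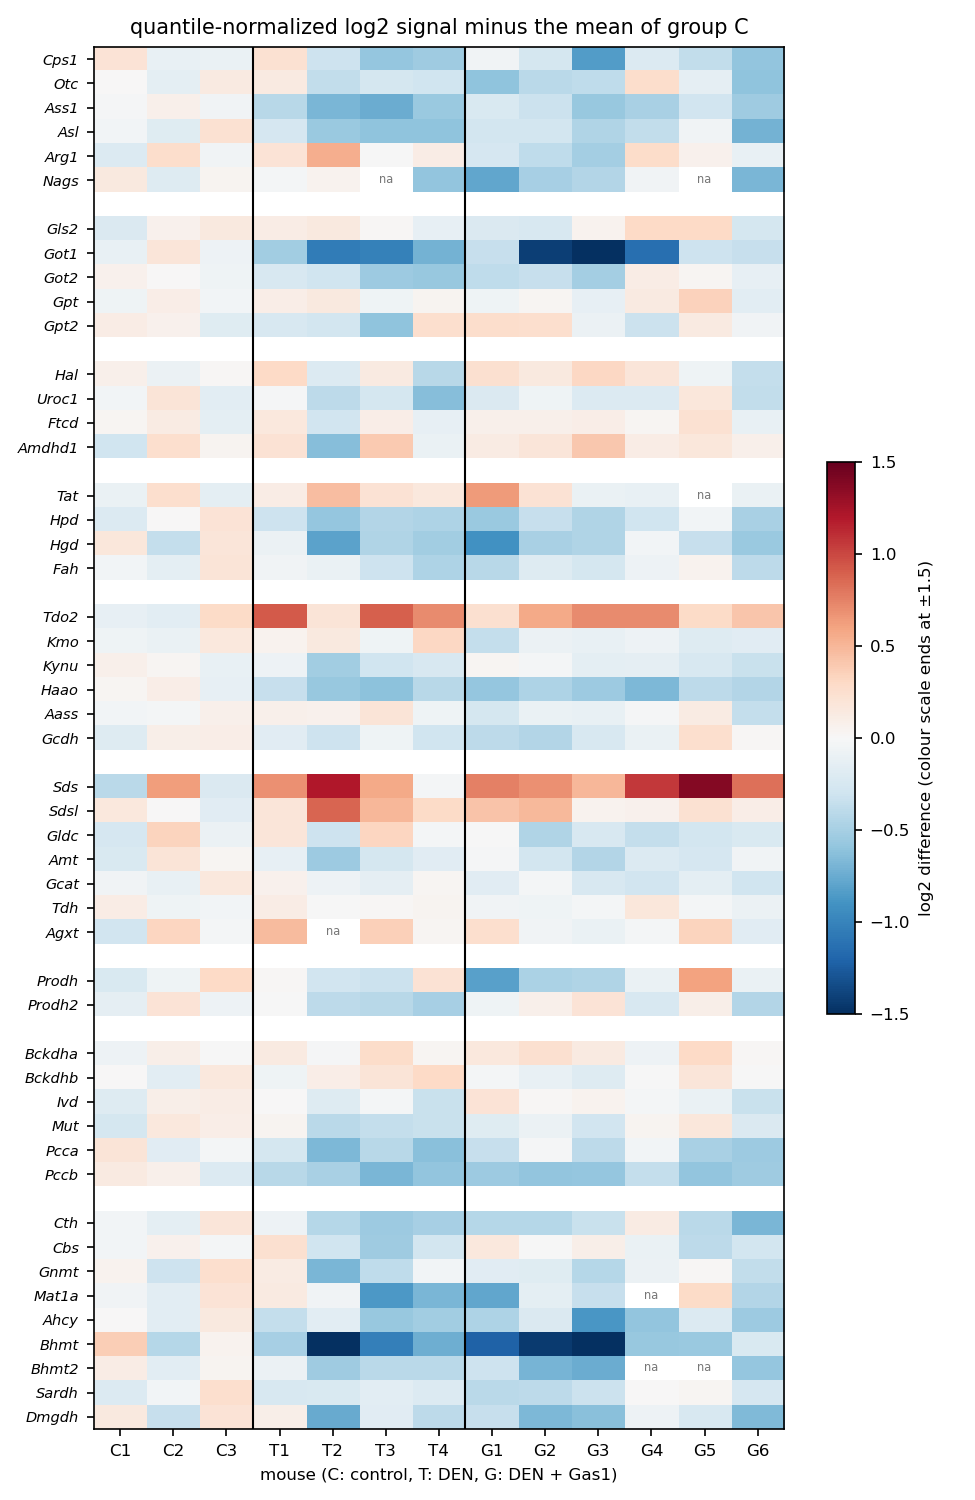
Quantile-normalized log2 signal of the 49 genes (rows, by role) in the 13 mice (columns), each minus the mean of group C; blue is lower, red is higher, the scale ends at ±1.5, and na marks a value lost to an outlier flag. Ass1, Haao and Pccb are blue in all 10 DEN mice, Tdo2 is red in them, and Bhmt has the largest SD within both group T and group G; with median scaling the group T means of all 49 genes are above group C.

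The comparison of group G with group T asks what the Gas1 plasmid added in DEN livers. None of the 49 genes was called by limma, where 0.127% of all genes and 0.201% of those above background on every array were. At an unadjusted p under 0.05 there were 6, or 12.2%, against 10.9% of all genes (4.13% higher and 6.73% lower) and 16.5% of those above background on every array. These were Ass1, higher by 0.20 ± 0.08 (adjusted p = 0.410), and Arg1, Kmo, Gldc, Aass and Gcat, with differences from −0.37 to −0.17. The median of the 49 was 0.01, with 26 above 0 and 23 below, and their differences ran from −0.37 to 0.26. With median scaling the median was −0.14 and none was called. The intervals show the size that could have gone unseen: for Ass1 the 95% interval ran from 0.02 to 0.37, for Haao from −0.19 to 0.13 and for Pccb from −0.15 to 0.18.

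The comparison of group G with group C asks which genes still differ from control livers after Gas1. Haao and Pccb were lower at the threshold, which makes 2 of 49. Of all genes 0.427% were called (0.25% lower), and of those above background on every array 0.898%. With median scaling both differences were above 0 and not called. Ass1 was −0.40 ± 0.09 (adjusted p = 0.0759), with group G wholly below group C. At an unadjusted p under 0.05 there were 15 lower and 2 higher genes, or 34.7%, against 13.2% of all genes (7.02% lower and 6.17% higher), and group G lay wholly below group C in 6 of the 49 (3.01% of all genes did). The median was −0.19 with quantile normalization, with 38 below 0, and 0.62 with median scaling, with 47 above 0. Groups T and G were compared with the same 3 controls, so the 2 sets of differences are not independent.

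**Figure D4:**
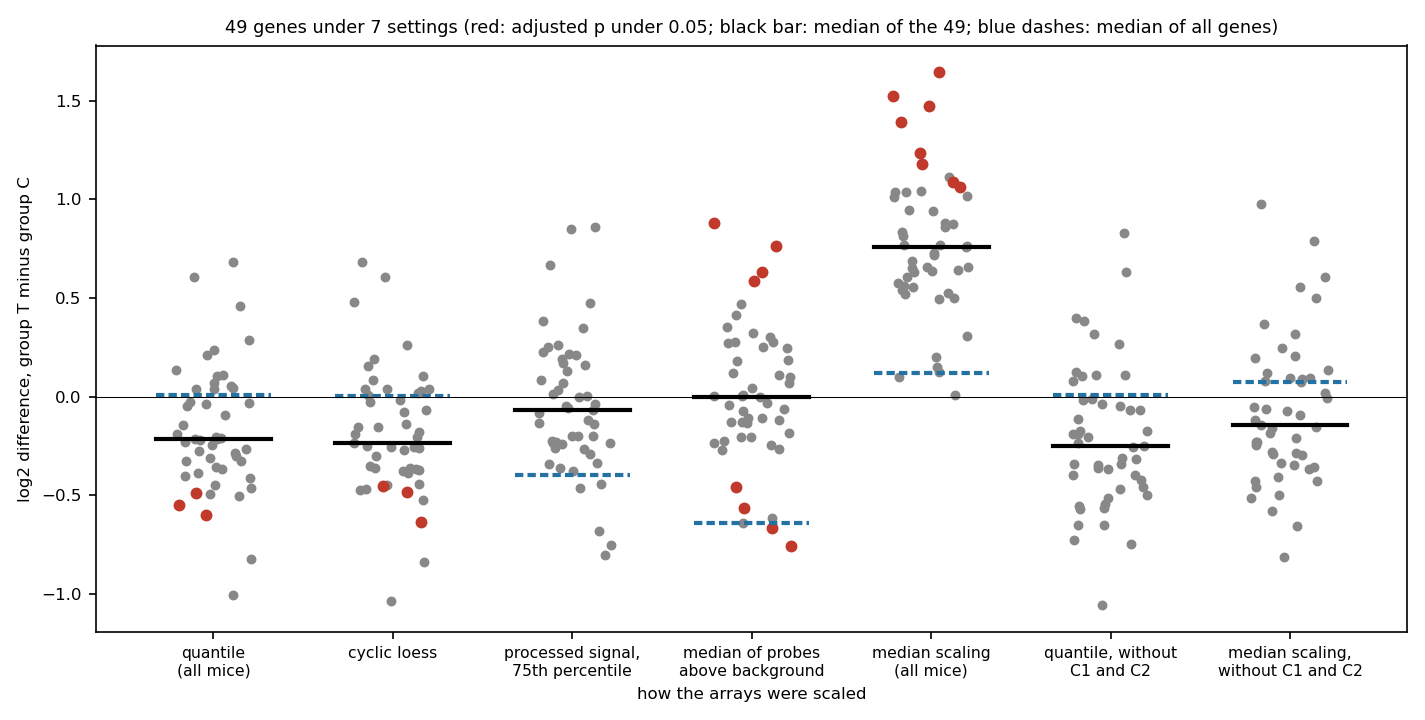
Log2 difference of group T from group C (y axis) for each of the 49 genes under 7 ways of putting the arrays on one scale or of choosing the control mice (x axis), with called genes in red, the median of the 49 as a black bar and the median of all genes as blue dashes. The median of the 49 is −0.21 with quantile normalization and 0.76 with median scaling of all mice, but −0.25 and −0.14 once C1 and C2 are left out.

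The direction of the whole list against group C thus depended on how the 15 arrays were scaled. Quantile normalization and cyclic loess gave medians of −0.21 and −0.24 for T against C, and both called Ass1, Haao and Pccb. Median scaling gave 0.76 and called 8 genes, all higher, namely Agxt, Arg1, Bckdha, Ftcd, Sds, Sdsl, Tat and Tdo2. It called 2818 of all 22032 genes higher and 14 lower, so these 8 are not read as particular to the list. The scanner's processed signal, set to the 75th percentile of each array, gave −0.07, with all genes at −0.40 and those above background on every array at 0.10, and called none. When each array was centred on the probes well above background everywhere, a setting added after the data had been seen, the median was 0.00. All genes were then at −0.64 and those above background on every array at −0.11. This setting called 4 of the 49 genes higher and 4 lower, where 598 of all 22032 genes were called higher and 12293 lower.

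That disagreement in sign went with C1 and C2. Without both, quantile normalization gave a median of −0.25 (all genes 0.01) with 38 genes below 0, and median scaling gave −0.14 (all genes 0.07) with 31 below 0. The called genes then had the same sign under both scalings, at −0.54 and −0.35 for Ass1, −0.36 and −0.14 for Haao and −0.34 and −0.28 for Pccb, and none was called with a single control mouse. Tdo2 was at 0.40 and 0.55, Sds at 0.83 and 0.97, Bhmt at −1.06 and −0.81 and Got1 at −0.75 and −0.65. Whether the dim signal of C1 and C2 came from the RNA, the labelling or the hybridisation was not tested.

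Within each of the 2 slides, which both held all 3 groups, the called genes kept their sign. The slides are not independent, since the RNA of mice C3 and T4 was on both. The only other control was the dim C2 on slide 1 and the dim C1 on slide 2. The difference of Ass1 between T and C was −0.66 on slide 1 and −0.51 on slide 2, that of Haao −0.51 and −0.39 and that of Pccb −0.47 and −0.52, and with fewer mice none of these was called. With the slide as a term all 3 were called (adjusted p = 0.00619, 0.0103 and 0.00802), together with Asl and Pcca, where 799 of all 22032 genes were called. Between G and C Bhmt2 was then called beside Haao and Pccb, where 166 of all genes were called.

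A further 85 genes of amino acid metabolism on the array, among them synthesis enzymes, transporters and the later steps of breakdown, give the setting of the 49. With quantile normalization group T differed from group C in 8 of them, 2 called higher and 6 called lower, or 9.41% where 2.38% of all genes were called, 0 were called between G and T, and 1 was called lower between G and C. At an unadjusted p under 0.05 there were 7 higher and 22 lower genes in T (34.1%, against 20.3% of all genes), 5 higher and 8 lower between G and T (15.3% against 10.9%), and 7 higher and 19 lower between G and C (30.6% against 13.2%). The median difference of T from C was −0.07. With median scaling 10 were called higher and 0 lower in group T, where 2818 of all 22032 genes were called higher and 14 lower.

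The 2 higher genes, Asns and Phgdh, make amino acids. Asns, which forms asparagine and is a known target of the amino acid response, was at 6.19, 5.88 and 6.26 in the controls, 7.57, 9.63, 8.04 and 9.14 in T1 to T4, and 6.31 to 8.82 with a median of 7.504 in group G. All mice of groups T and G were above the controls, in which it was well above background on 1 of 4 arrays. The difference was 2.48 ± 0.60 in group T (adjusted p = 0.0497), a call at the edge of the threshold, and 1.33 ± 0.55 in group G (adjusted p = 0.322). It stayed above 0 in group T under each alternative run, from 1.88 to 4.61, and was 2.34 without C1 and C2 (adjusted p = 0.547).

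Phgdh, the entry step of serine synthesis, lay close to background in the controls, at 6.07, 6.09 and 6.06. In T1 to T4 it was 6.47, 7.67, 7.25 and 7.10, and in group G 6.09 to 6.67 with a median of 6.35. The mice of group T were above the controls, and group G lay between with overlap on both sides. The difference of T from C was 1.05 ± 0.21 (adjusted p = 0.02995) and that of G from T −0.73 ± 0.18 (adjusted p = 0.134), and it was also above 0 in group T under each alternative, from 0.36 to 3.22. Without C1 and C2 the difference of T from C was 1.07 and no longer called (adjusted p = 0.448).

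The 6 lower genes were spread over several routes. Etfdh, which passes electrons from several dehydrogenases of amino acid and fatty acid breakdown to the respiratory chain, was at 11.30, 11.26 and 11.39 in the controls, 10.86, 10.09, 10.62 and 10.25 in group T, and 10.74 to 10.998 in group G, with a difference of −0.86 ± 0.14 for T against C (adjusted p = 0.0156). Both DEN groups were wholly below group C.

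Shmt1, the cytosolic serine hydroxymethyltransferase, was 9.06, 9.06 and 9.04 in the controls, 8.52, 8.39, 8.15 and 8.61 in group T, and 8.24 to 8.65 with a median of 8.55 in group G. It was lower in group T by −0.64 ± 0.11 (adjusted p = 0.0190) and in group G by −0.57 ± 0.10 (adjusted p = 0.0412). Thnsl2, a relative of threonine synthase, Mthfd1, a folate enzyme, Pcbd1, which recycles the cofactor of phenylalanine hydroxylase, and Acad8, of valine breakdown, had differences of −0.64, −0.50, −0.51 and −0.43 in group T, all 4 called. Under median scaling all 6 were above 0 and none was called, and without C1 and C2 all 6 were below 0 with either scaling and none was called. Csad, which makes taurine from cysteine, was named for the size of its difference in group G, 0.74 ± 0.33 from group T and 0.84 ± 0.36 from group C, with adjusted p-values of 0.438 and 0.335.

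**Figure D5:**
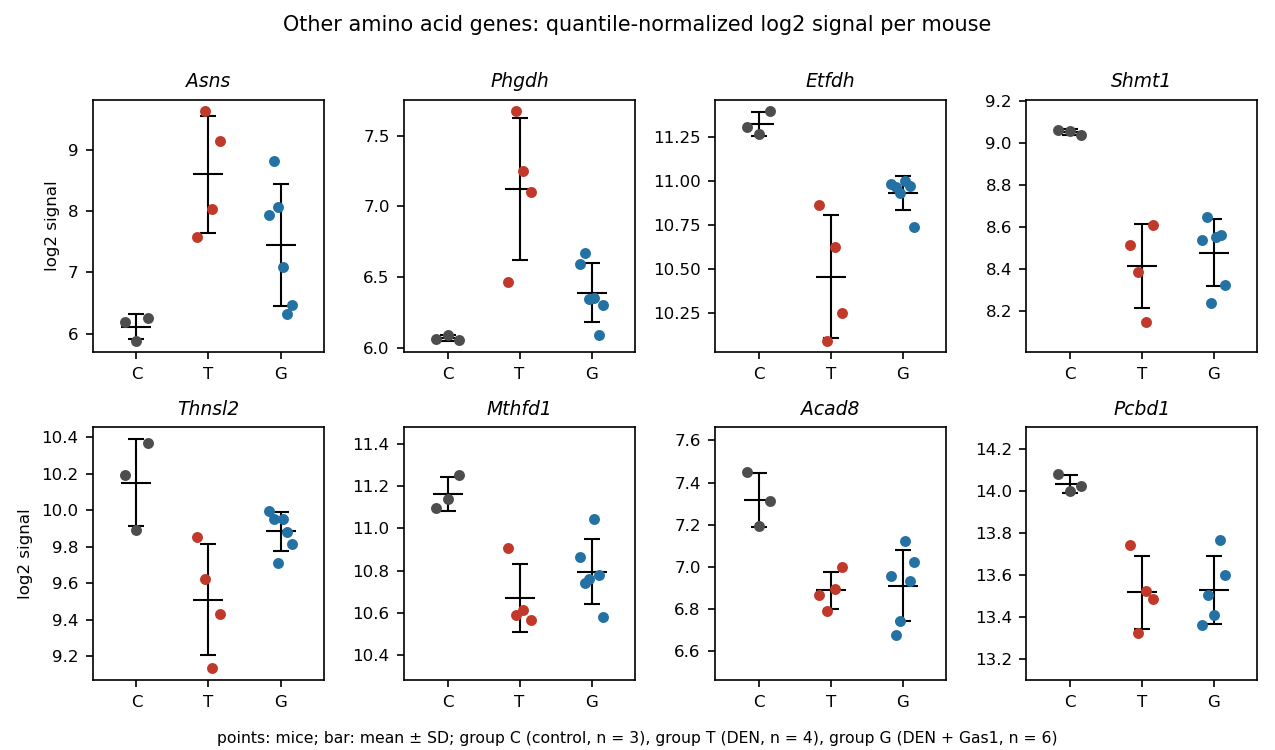
Quantile-normalized log2 signal (y axis, own range in each panel) of the 8 other amino acid genes called between groups T and C, per mouse with a value, with mean ± SD as bars. Asns and Phgdh are higher in group T than in the 3 controls, and the other 6 are lower, but with median scaling those 6 have group T means above group C.

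Clock genes and lists tied to feeding and liver zones were measured beside these genes. Of 14 clock genes, 4 were called higher in group T and 3 in group G, where 1.22% and 0.177% of all genes were called higher, with Dbp at 7.03 to 8.26 in group C, 9.37 to 11.99 in group T and 10.58 to 12.81 in group G. With median scaling 7 and 0 clock genes were called higher, where 2818 and 0 of all 22032 genes were. Without C1 and C2 Dbp was not called in either group, and its difference from C3 alone was 4.09 in group T and 4.67 in group G. Of 16 genes tied to hormones, fasting and C/EBP factors, 0 were called in group T and 1 in group G, Pck1, higher by 1.96 ± 0.38 (adjusted p = 0.0495), a rate-setting enzyme of glucose synthesis. With median scaling 6 were called higher in group T and 0 in group G, and without C1 and C2 Pck1 was 2.10 in group G and not called (adjusted p = 0.578). At an unadjusted p under 0.05 the list had 18.8% of its genes in group T, against 20.3% of all genes. The mean of 4 periportal hepatocyte markers, the zone where urea cycle enzymes are mostly found, was 10.29 to 10.88 in group C. It was 10.64 to 11.26 in group T, with 0 called, and 11.05 to 11.64 in group G, with 1 called, Pck1. For 8 pericentral hepatocyte markers the mean was 9.21 to 9.67, 9.06 to 9.605 and 9.11 to 9.98 in groups C, T and G. Of these 8, 0 were called against group C in either DEN group. Their part in the differences of the 49 genes was not tested.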

How the data were processed

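Liver RNA of 13 mice was measured on 15 single-colour Agilent arrays (SurePrint G3 Mouse, probe positions on mm9). The authors deposited the scanner's intensity of each spot and its local background from Feature Extraction 10.7.3.1, not yet normalized between arrays, and a log2 table of the whole series, which the authors made with normexp and quantile normalization. That log2 table was used as an alternative only, and 99.4% of its spot values lay within 0.05 of those rebuilt here.

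After background correction of the mean intensity (normexp, offset 50) and a log2 transform, 218 to 3692 spots per array with an outlier flag were set to missing, and the arrays were quantile normalized without control spots (59305 spots kept). Spots were averaged per probe, and probes, each centred on its own mean, per gene symbol. Arrays of 1 RNA code were averaged when the SD of their differences was under 0.7 times that of the next closest pair. Groups were compared with limma 3.58.1 in R 4.3.3 (group means, eBayes), with Benjamini-Hochberg adjustment over 22032 genes and a threshold of 0.05. The fit was also run on simulated data with normal noise and no scaling step, which cannot test how the arrays were scaled.

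Arrays have no read depth: 15707 to 29765 spots per array were well above background, and the number of mice limits the precision. Whether the mice are littermates is not given in the sources used here. Values per mouse are given for the urea cycle genes, for each gene called and for the 6 largest differences in each comparison. The 49 genes and all other lists were chosen with earlier results of these data known. Of 86 further pathway genes, 85 were found on the array. Some genes of the lists are not reported here and were left out of the counts of their lists. The alternatives changed the scaling, filters, probes, mice, slides and test.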

Additional observations from a re-analysis of the deposited data

Results flagged for a closer look

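In 31 groups of 4 to 6 mice of the named genes, 2 held a mouse that stood apart by Dixon's test, where chance alone gives about 1 in 20. Asl in group T had T1 at 10.94 and the next mouse at 10.64, a gap of 0.858 of the range of the 4 mice, and T1 was the mouse of group T closest to the controls. Pccb in group G had G4 at 7.23 and the next mouse at 7.04, a gap of 0.771 of the range of the 6 mice, with G4 below the controls as well.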

How the results depend on the processing

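Across 33 alternatives, the calls of T against C were kept in 23 for Ass1, 23 for Pccb and 20 for Haao, and those of G against C in 18 for Pccb and 17 for Haao, and each turned its sign under median scaling alone. Of the 49 genes, 3 were called for T against C, 0 for G against T and 2 for G against C, and of the 85 further genes 8, 0 and 1. Of all 22032 genes 525 were called for T against C in the main setting, 2832 with median scaling and 12891 with centring on probes well above background. There were 1947 with the 15 arrays as separate mice and 799 with the slide as a term. For G against C all genes gave 94 in the main setting, 12564 with that centring and 342 with separate arrays. For T against C the 49 genes gave 8 calls with median scaling, 8 with each array centred on probes well above background (added after seeing the data), 12 with the 15 arrays as separate mice, 5 with the slide as a term, and 0 with the processed signal, on slide 1, on slide 2, by the methods' t-test (equal variances or Welch, after adjustment), and with both dim mice of group C left out under either scaling (added after seeing the data). The further genes gave 22 with centring on probes well above background, 3 with cyclic loess, 1 with the processed signal, 5 with the plain mean of probes, 19 with separate arrays, 1 on slide 1, 0 on slide 2, 4 with the replicate block, 0 by either t-test and 0 without the dim mice.

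For G against C the 49 genes gave 6 with centring on probes well above background, 5 with separate arrays, 1 with an eBayes trend, and 0 with median scaling, cyclic loess, the processed signal, either slide, the replicate block, either t-test or without the dim mice. The further genes gave 23, 7 and 0 under the same 3 settings in turn, 2 with a filter on dim probes, and 0 with median scaling, cyclic loess, the processed signal, the plain mean of probes, either slide, either t-test or without the dim mice. For G against T, 2 further genes were called with separate arrays. Leaving out each mouse in turn gave 0 to 4 calls of the 49 for T against C, 0 to 0 for G against T and 0 to 2 for G against C, and 1 to 10, 0 to 2 and 0 to 3 of the further genes. Without C2 none of the 49 was called in T against C and without C1 1 was, and for G against C none was called without C1, C2, G2 or G3 and 1 without G1. In G against C, Haao and Pccb then had adjusted p-values of 0.0912 and 0.109 without C1, 0.0899 and 0.0919 without C2, 0.0555 and 0.0566 without G2, and 0.0594 and 0.0627 without G3, and Pccb had 0.0529 without G1. In T against C, Pccb had 0.0543 without C1 and 0.0573 without C2.

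Under median scaling the differences of T from C turned to 0.69 (Cps1), 0.76 (Otc), 0.49 (Ass1), 0.50 (Asl), 0.66 (Nags), 0.63 (Haao), 0.0077 (Pccb), 0.12 (Bhmt), 0.15 (Got1), 0.033 (Acad8), 0.13 (Etfdh), 0.50 (Mthfd1), 0.54 (Pcbd1), 0.14 (Shmt1) and 0.30 (Thnsl2), and those of G from C to 0.48 (Cps1), 0.53 (Otc), 0.51 (Ass1), 0.50 (Asl), 0.66 (Arg1), 0.27 (Nags), 0.38 (Haao), 0.0052 (Pccb), 0.19 (Bhmt2) and 0.14 (Shmt1). With centring on probes well above background, Otc turned to 0.0010 in T against C. Without T4, Nags turned to 0.0097 there, and over all mice left out it ran from −0.31 to 0.0097. For G against T, Cps1 turned to 0.049 on slide 2, 0.088 without T1 and 0.0043 without G3 (lowest −0.18 without T3), Otc to 0.048 with the plain mean of probes, 0.12 on slide 1 and 0.0034 without T1 (lowest −0.22 without G4), and with the processed signal Ass1 turned to −0.047 and Asl to −0.041. The cause was not tested.

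The replicate numbers were not taken to pair the mice. After centring on group means, same-numbered mice had correlations of −0.31 to 0.25 over 10 pairs, 4 of them above 0.1. Pairs with different numbers were not set beside them, so whether the numbers carry a pairing was not tested. With the replicate block, 2 of the 49 were called for T against C, 0 for G against T and 0 for G against C. Signal over background limits Tdh and the controls' values of Asns and Phgdh.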
